A study of Mus musculus with 8 samples.

Results

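Cytosolic ribosomal protein genes encode the protein subunits of the ribosome that translates nuclear messages. The members were all protein-coding genes whose GRCm38 symbol starts with Rpl or Rps and a number, together with Rplp0, Rplp1, Rplp2 and Rpsa. Pseudogenes and the Rps6k kinases were left out. The rule gave 86 genes among the 55450 in the count tables, 52 named for the large subunit and 34 for the small subunit. It also took in Rps19bp1, a binding protein of Rps19 that is not a structural subunit, and variant forms such as Rps27l and Rpl22l1.

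The libraries were bulk RNA-seq of primary hepatocytes from C57BL/6 mice aged 8 weeks, cultured in serum-free DMEM/F-12 with 10 µM dexamethasone and penicillin/streptomycin. WT cells were Slc39a8(F/F) and carried no Cre. LSKO cells were Alb-cre(+/+);Slc39a8(F/F), in which Cre under the albumin promoter deletes the metal transporter gene Slc39a8 (ZIP8) in hepatocytes. WT and LSKO cells had 2 untreated libraries each, and LSKO cells given 2 µM manganese chloride, ferrous chloride, sodium selenite or zinc chloride for 24 hours had 1 library each. Nothing in the labels ties the replicates to separate animals, so p-values measure only the spread between these libraries, which may be technical.

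Ribosomal protein messages are short, abundant and needed in near-equal amounts, since each ribosome carries 1 copy of most subunits. Many begin with a C followed by a run of pyrimidines, the 5' terminal oligopyrimidine (TOP) element, through which their translation responds to mTORC1. Surplus Rpl5 and Rpl11 that are not built into ribosomes bind Mdm2 and so stabilise p53.

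The start regions of 4 members are printed because the reads of Rps27 and Rps27rt bear on the results and because Rpl38 and Rpl28 show the pyrimidine run. Each gives 30 bases before the start base and 20 from it on, on the gene's own strand, from RefSeq (GRCm38.p6), with the letters CTTTC in capitals.
Rps27 (chr3:90213629-90213678, minus strand): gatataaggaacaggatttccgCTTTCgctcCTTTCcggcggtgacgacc
Rps27rt (chr9:114982720-114982769, minus strand): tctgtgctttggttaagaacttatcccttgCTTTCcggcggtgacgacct
Rpl38 (chr11:114668550-114668599, plus strand): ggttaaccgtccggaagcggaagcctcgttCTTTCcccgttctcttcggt
Rpl28 (chr7:4792935-4792984, plus strand): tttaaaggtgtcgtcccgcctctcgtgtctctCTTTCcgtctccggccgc
Rps27 and the retrogene Rps27rt shared an identical run of 38 bases near their starts, and their sequences differed before it. The longest open reading frame of Rps27rt, 255 bases, was 100% identical to that of Rps27.

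Promoters were found for 66 of the 86 members, in 78 entries of 300 bases each. CTTTC on the gene's own strand lay between base -25 and base 24 around the start in 25.6% of the 78 entries and in 6.75% of all 32851 entries. Over the whole 300 bases the shares were 64.1% and 34.8%. CCGGAAG, on either strand, was present in 34.6% of member entries and 8.86% of all entries, and Rpl38 carries it among the printed bases. TATAAA on the gene's own strand, from base -50 up to but not including base 0, was present in 1.28% and 2.63%. AAGATGG, on either strand, was present in 15.4% and 6.34%. No motif contains the letters of another, and each match describes letters only.

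Sequencing placed between 19943899 and 27731054 reads in genes per library. Reads of Slc39a8, as counts scaled to library size (normalized CPM), were 12.7 and 15.5 in WT, 8.15 and 1.88 in LSKO and 1.48 to 3.18 in the metal libraries, so LSKO replicate 1 kept more of the targeted gene than LSKO replicate 2. The libraries split by read statistics. LSKO replicates 1 and 2 and the manganese library had 0, 0 and 62 reads set aside as low quality, against 592678 to 680199 in the other 5. The manganese library also stood apart, where 72.2% of reads fell in genes and the range elsewhere was 39.3% to 42.1%. Comparisons of iron, zinc or selenite with LSKO cross this split, and so does untreated LSKO against WT. Comparisons of iron, zinc and selenite with each other or with WT do not, but those with WT also differ in genotype. Summed hepatocyte marker levels (8 of 8 markers tested) were 20190 and 19170 normalized CPM in WT, 28020 and 35650 in LSKO and 30070 to 48420 in the metal libraries. Fewer cells of a type and less RNA per cell cannot be told apart in bulk samples.

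Ribosomal protein genes took 5.07% to 7.06% of the reads in genes. The share was 6.21% and 5.92% in WT, 6.05% and 5.94% in LSKO, 6.67% with manganese, 5.07% under iron, 7.06% under selenite and 6.32% under zinc. The selenite library was the highest and the iron library the lowest of the 8. All 4 metal libraries lay outside the range of the 4 untreated libraries, iron below it and the others above it. Large-subunit reads were 1.32 to 1.34 times small-subunit reads in every library.

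**Figure D1:**
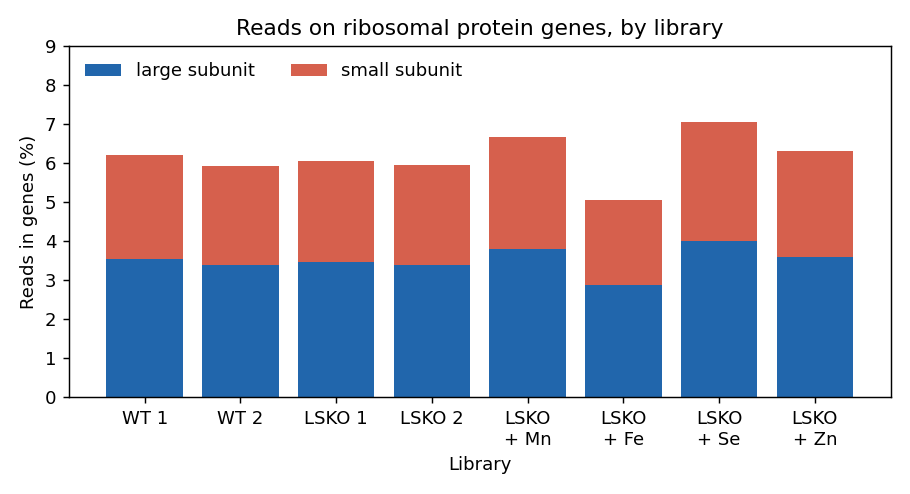
Percent of reads in genes that fell on ribosomal protein genes, 1 bar per library, large subunit in blue and small subunit in red. The selenite bar reaches 7.06% and the iron bar 5.07%, while the 4 untreated bars lie between 5.92% and 6.21%. The manganese and zinc bars, at 6.67% and 6.32%, lie above the untreated bars.

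The 83 members with enough reads to test ranged from 1.73 to 3216 normalized CPM per kb of annotated transcript. Per kb of annotated transcript, the highest large-subunit genes were the stalk gene Rplp1 (mean 3216 normalized CPM per kb), Rpl41 (1844) and the stalk base gene Rplp0 (1682). The highest small-subunit genes were Rps2 (1964), Rps14 (1855) and Rps18 (1801). The lowest among those tested were Rpl24 (1.73), Rpl36al (2.37) and Rpl13a (30.1) in the large subunit and Rps10 (9.69), Rps19bp1 (60.7) and Rps27rt (64.8) in the small subunit. Rpl24, Rpl36al, Rpl13a and Rps10 share exons on their own strand with another annotated gene over 47%, 24.5%, 35.4% and 20.6% of their exon bases, and reads matching both genes are not assigned by a counter that keeps unambiguous reads only. The genes that overlap Rpl24, Rps10 and Rpl13a had 0 reads in every library. Pseudogenes of Rps10 held 27414 reads over the 8 libraries, while the gene itself had a mean of 114 reads per library. The level of these 4 genes is therefore uncertain. Rpl5 sits at 785 per kb on an annotated length of 2045 bases, so per-kb levels rest on the annotation.

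Variant forms differed from the usual ones in read counts, which are not corrected for transcript length. Rps27l held 59608 reads over the 8 libraries, 111% of Rps27. Per kb of annotated transcript the order was reversed, at 631 normalized CPM for Rps27l and 818 for Rps27. Rpl22l1 held 56.6% of the reads of Rpl22, and Rpl7l1 held 14.7% of those of Rpl7. Rpl36al, whose level is uncertain as stated above, held 0.386% of the reads of Rpl36a. Rpl3l held 26 reads in all and Rpl39l 8, and Rpl10l, a testis form, had 0 reads in every library. These last 3 were the members too low to test. Rps4l, Rps3a2 and Rps3a3, which the annotation classes as pseudogenes, held 2.93%, 0.244% and 0.378% of the reads of their usual forms.

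Selenite was the library with the highest ribosomal protein levels. Of 83 members tested, 41 rose and 0 fell against untreated LSKO, with a median log2 fold change of 0.50, where the median over all 15468 genes tested was -0.01. Over all genes, 7.89% were called higher and 9.67% lower, by edgeR's quasi-likelihood test with calls made below an adjusted p of 0.05 and past 0.5 in log2 fold change. In the large subunit 23 of 49 genes rose and the median was 0.49, and in the small subunit 18 of 34 rose and the median was 0.51. No member was lower at an unadjusted p under 0.05, where 19.9% of all genes were. DESeq2 called 35 higher, beside 4.69% of all genes, and 0 lower. The selenite library was the highest of the 8 in 75 of 83 members, against 24.9% of all genes. Without TMM scaling it was the highest in 46, against 9.5% of all genes, and the manganese library was the highest in 29, against 15.9%.

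Rpl29, a large-subunit gene at the ribosome surface, had 394 and 374 normalized CPM in LSKO, 511 and 562 in WT and 787 with selenite. It rose by 1.03 ± 0.09 (log2, SE) with an edgeR adjusted p of 5.6e-05. Rpl15, a core large-subunit gene, had 567 and 573 in LSKO, 682 and 659 in WT and 958 with selenite, a rise of 0.75 ± 0.09 (edgeR adjusted p 0.000299). Both selenite values lay above all 4 untreated libraries. LSKO lay below WT in both genes, at -0.48 ± 0.08 for Rpl29 and -0.23 ± 0.07 for Rpl15 on the log2 scale. With its pseudogenes Rpl29 had 728 and 752 in WT, 495 and 476 in LSKO, 1097 under selenite and 868 under zinc.
Rps21, of the small subunit, had 178 and 170 in LSKO, 217 and 147 in WT and 291 with selenite, a rise of 0.74 ± 0.17. Pseudogenes of Rps21 held 920 and 1242 reads in LSKO, 174 and 177 in WT and 179 with selenite. Its own reads numbered 4036 and 4632 in LSKO and 5899 with selenite. Rps6, the substrate of S6 kinase, had 995 and 999 in LSKO and 1666 with selenite (0.74 ± 0.09). Rps19, the gene most often altered in Diamond-Blackfan anaemia, had 563 and 588 in LSKO and 833 with selenite (0.53 ± 0.09).
Of the genes that engage Mdm2, Rpl5 rose by 0.54 ± 0.09, while Rpl11 stood at 0.38 ± 0.09, short of the fold limit. Among the stalk genes, Rplp0 stood at 0.36, Rplp1 at 0.49 and Rplp2 at 0.06, and none was called. Rpsa, the laminin-receptor subunit, stood at 0.40. The narrowest ranges over the libraries belonged to Rps19bp1 (0.33 on the log2 scale), Rpl7l1 (0.35), Rpl8 (0.36), Rpl13a (0.36) and Rps9 (0.38), against a median range of 0.83 over 81 members with a mean of at least 100 reads.

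The number of members called with selenite changed with scaling and with a joint correction for transcript length and GC content. Without TMM scaling, which for the selenite library used a factor of 0.867, 4 members were called, beside 3.91% of all genes higher, and the member median was 0.26, while the median of all genes moved to -0.26. With each library's trend over transcript length and GC content taken out, 3 members were called, beside 3.76% of all genes higher. They were Rps27rt, Rpl29 and Rpl35, and the member median was 0.10. The trend was fitted over genes that included the members, so part of their own change may have been taken out with it. Without LSKO replicate 1, 27 members were called, beside 5.44% of the genes tested.
Markers of cell types also differed in the selenite library, where 7.89% of all genes were called higher and 9.67% lower. Of 8 hepatocyte markers 4 were called higher, and their sum of 48420 normalized CPM was the highest of the 8 libraries. Of 7 endothelial markers 3 were lower, with a sum of 113 against 162 and 129 in LSKO, and of 8 stellate markers 3 were lower, with 17.9 against 27.4 and 22.4. Of 9 Kupffer cell markers tested 3 were higher. The part of these cells in the result was not tested.
The members were set beside other coding genes of like length. The median log2 change with selenite was 0.54 in 32 members under 600 bases, 0.49 in 33 members from 600 to 1000 bases and 0.42 in 18 longer members. Among other protein-coding genes with a mean of at least 100 reads it was 0.47 in 145 genes, 0.38 in 553 genes and -0.02 in 9178 genes of the same 3 classes. What length has to do with the change was not tested further.

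**Figure D2:**
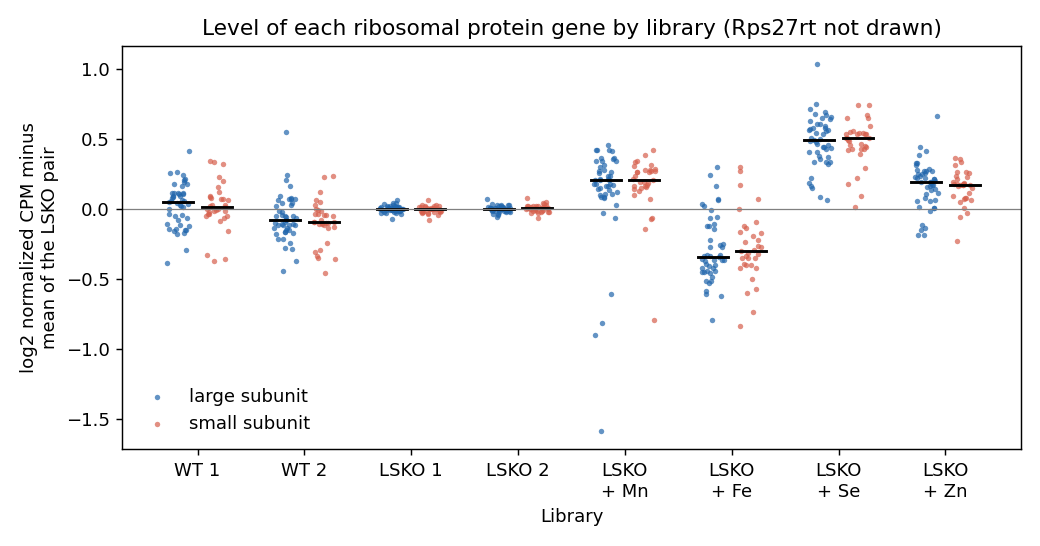
Log2 normalized CPM of each member with a mean of at least 100 reads, minus its mean in the LSKO pair, by library (x axis), large subunit in blue, small in red, black lines the medians. The selenite points centre near 0.50 and the iron points near -0.33, with the medians of the 2 subunits close to each other in every library. Rps27rt lies off the scale and is not drawn.

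Iron was the library with the lowest levels. Against LSKO, 12 of 83 members fell and 1 rose, with a median of -0.33, beside 4.89% of all genes lower and 3.8% higher. It was the lowest of the 8 libraries in 60 of 83 members, against 15.1% of all genes. In all, 7 large-subunit and 5 small-subunit genes fell.
Rps12, of the small subunit, had 773 and 742 normalized CPM in LSKO, 586 and 551 in WT and 423 with iron, a fall of 0.84 on the log2 scale (SE 0.10, edgeR adjusted p 0.000394). Rpl35a had 459 and 453 in LSKO, 350 and 335 in WT and 264 with iron (-0.79 ± 0.09). Rps27 had 277 and 295 in LSKO, 223 and 231 in WT and 171 with iron (-0.74 ± 0.10). Rpl38 had 195 and 199 in LSKO, 202 and 182 in WT and 128 with iron (-0.63 ± 0.10). In these 4 genes the iron value lay below all 4 untreated libraries, and in Rps12, Rpl35a and Rps27 WT already lay below LSKO.
Against WT as the control, 6 members fell with iron, beside 4.76% of all genes. Against all 4 untreated libraries edgeR called 0 members, but only 1 of the 15468 genes was lower there (0.00646%), so this 0 does not set the members apart. In that fit the member median was -0.29, beside 0.007 over all genes. The median was -0.39 in the 32 shortest members, -0.26 in the middle class and -0.13 in the longest, and -0.33, -0.16 and 0.04 in the other coding genes of these classes. With the length and GC trend taken out 4 fell, namely Rpl21, Rpl35a, Rps12 and Rps27, beside 4.28% of all genes. Rpl21 alone had 269 and 261 normalized CPM in LSKO and 174 with iron. With its pseudogenes it had 283 and 276 in LSKO and 237 with iron. Endothelial marker levels summed to 84.3 normalized CPM with iron against 162 and 129 in LSKO, and stellate markers to 8.32 against 27.4 and 22.4; their part in the result was not tested.

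**Figure D3:**
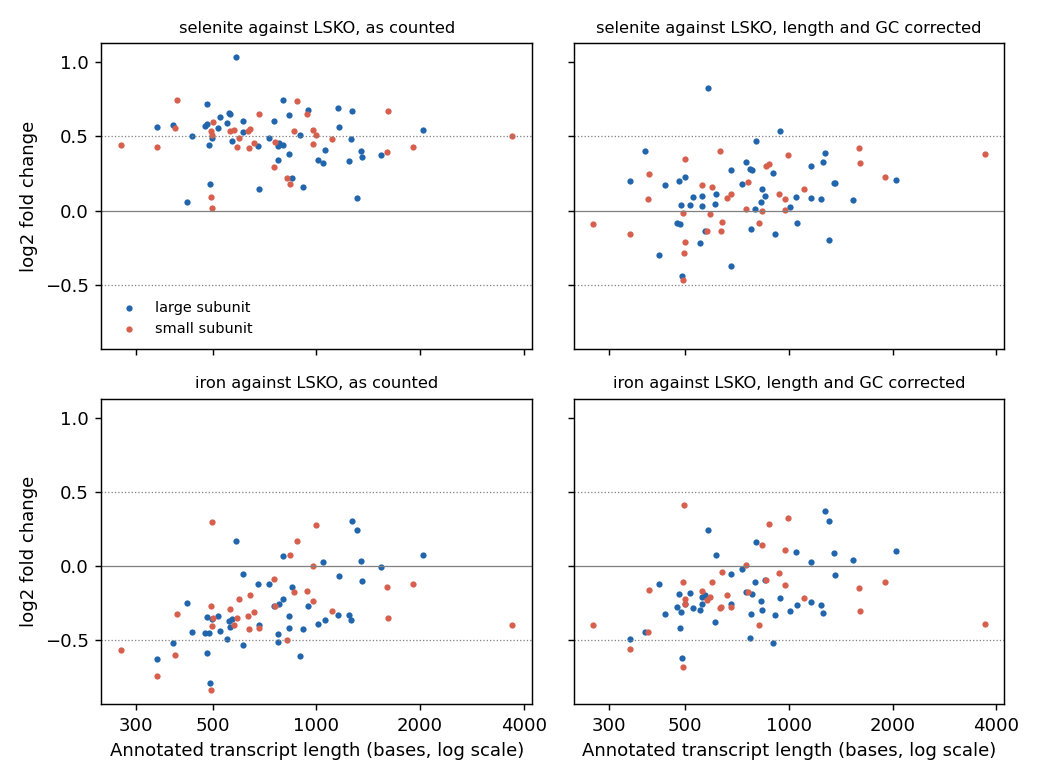
Log2 fold change against LSKO (y axis) by annotated transcript length on a log axis (x axis), for selenite (top) and iron (bottom), as counted (left) and after the length and GC trend of each library was taken out (right). Dotted lines mark the fold limit of 0.5; the selenite median moves from 0.50 to 0.10 and the iron median from -0.33 to -0.20.

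Set against the mean of iron and zinc, within the same side of the read-statistics split, 55 of 83 members were higher with selenite and 0 lower, with a median of 0.56, beside 7.53% and 8.35% of all genes. This comparison shares the selenite library with the one above. Its reference includes the iron library, the lowest of the 8 in 60 of 83 members. Against LSKO the member median was -0.33 with iron and 0.18 with zinc, so the difference from their mean holds the iron fall as well. The largest differences among members with a mean of at least 100 reads were in Rps27rt (0.88 ± 0.13), Rps21 (0.87 ± 0.17), Rps27 (0.77 ± 0.09) and Rps29 (0.77 ± 0.11), all named for the small subunit. With the length and GC trend taken out 3 were called higher, beside 2.81% of all genes, and without TMM scaling 17, beside 3.58%.

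With zinc 2 members rose, Rps27rt and Rpl29 (610 normalized CPM, 0.67 ± 0.09), and 0 fell, with a median of 0.18, beside 2.9% higher and 1.55% lower over all genes. Both genes stood lower in LSKO than in WT, at -3.22 and -0.48 on the log2 scale. Against WT as the control edgeR called 0 members higher, beside 6.39% of all genes, and 39 were higher at an unadjusted p under 0.05, beside 16.3%. DESeq2 against LSKO called 2 higher, beside 1.85%.

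With manganese the members stood at a median of 0.21 with 0 called higher and 5 lower, beside 2.09% and 15.1% of all genes. At an unadjusted p under 0.05, 40 members were higher and 5 lower, beside 9.35% and 21.1% of all genes. DESeq2 called 0 higher, and 5 lower beside 12.7%. The count of rises depended on the fit: with the length and GC trend taken out 17 were called higher, beside 2.97% of all genes, and with WT as the control 6 were, beside 9.45%. Of the 5 that fell, Rpl23a, Rpl22l1, Rpl30 and Rpl35 are described here. Rpl23a, at the exit of the peptide tunnel, had 630 and 632 normalized CPM in LSKO and 210 with manganese, a fall of 1.59 on the log2 scale (SE 0.10, edgeR adjusted p 4.72e-07). Rpl22l1 had 183 and 168 in LSKO and 93.5 with manganese (-0.91 ± 0.10). Rpl30 had 528 and 553 and then 308 (-0.81 ± 0.09), and Rpl35 had 452 and 442 and then 293 (-0.61 ± 0.10). In these 4 the manganese library was the lowest of the 8.
Each of these genes overlaps exons of a gene on the other strand, over 59.7% of exon bases in Rpl23a, 66.2% in Rpl35, 20.4% in Rpl30 and 7.99% in Rpl22l1. Of the 15 members with at least 5% overlap 5 fell, and of the other 68 members 0 did. Rpl31, Rps25 and Rpl5 overlap over 25.3%, 24.8% and 24.3% and stood at 0.42, 0.15 and 0.21. The manganese library had 5.19% of reads set aside as ambiguous between genes, against 1.25% to 1.49% in the others. The strand setting of the count was not given in the sources used here, and whether these falls come from how reads were assigned was not tested.

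**Figure D4:**
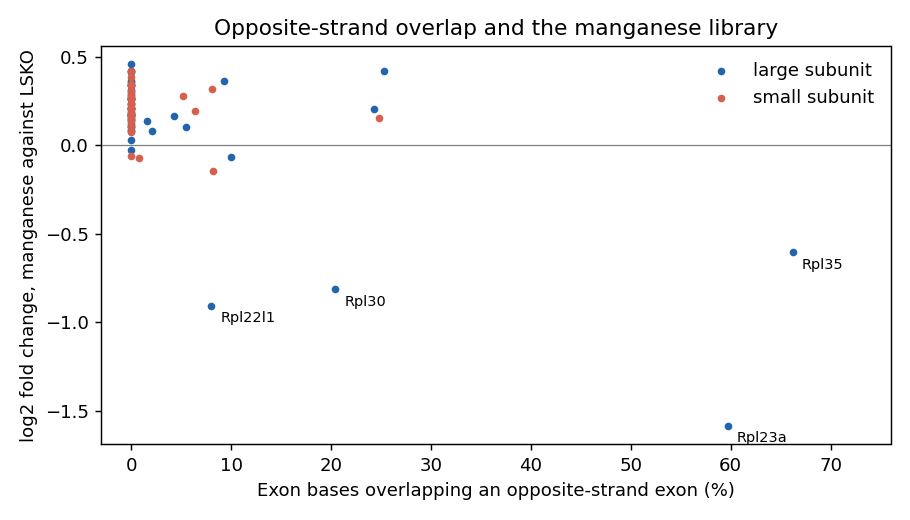
Log2 fold change of each member with manganese against LSKO (y axis) by the percent of its exon bases that overlap an exon of a gene on the other strand (x axis), large subunit in blue and small in red. The 4 named genes fell, at 7.99% to 66.2% overlap, and 1 further gene that fell is not drawn.

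The members stood near WT levels in LSKO cells, in a comparison where genotype and the read-statistics split cannot be told apart. In untreated LSKO against WT, 0 of 83 rose and 1 fell, with a median of 0.02, beside 6.74% and 3.7% of all genes. At an unadjusted p under 0.05, 11 members were higher and 7 lower, beside 16.0% and 12.8% of all genes. DESeq2 called 0 higher, and 1 lower beside 2.08%. Without WT replicate 1 the median was 0.12 and 2 members were lower, beside 1.47% of the genes tested.
The 1 was Rps27rt, with 31.7 and 26.9 normalized CPM in WT and 3.30 and 3.02 in LSKO (-3.22 ± 0.14, edgeR adjusted p 2.22e-07). It had 3.69 with manganese, 27.1 under iron, 59.6 under selenite and 38.5 under zinc, and was the member with the widest range (4.30 on the log2 scale). It rose by 4.24, 3.10 and 3.61 with selenite, iron and zinc. Its low values are the 3 libraries with almost no low-quality reads, and within the other 5 it ranged from 26.9 to 59.6. Reads of Rps27rt and Rps27 cannot be told apart within the identical coding sequence, and the 2 genes together had 254 and 258 normalized CPM in WT, 280 and 298 in LSKO, 386 with manganese, 198 under iron, 444 under selenite and 334 under zinc.

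Summed over the members, pseudogene reads followed the same split, though not for every gene. Those of some members, among them Rps21 and Rpl13a, ran the other way. Per 100 member reads, 1739 matched pseudogenes held 6.28 and 6.41 in WT, 3.40 and 3.37 in LSKO, 3.04 with manganese, 6.20 under iron, 6.55 under selenite and 6.49 under zinc. Pseudogenes of Rps12 held 5951 and 4777 reads in WT, 309 and 390 in LSKO, 234 with manganese, 3006 under iron, 6333 under selenite and 5917 under zinc. Rps12 alone stood 0.41 higher in LSKO than WT on the log2 scale. Summed with its pseudogenes it stood at 0.01 (edgeR adjusted p 0.974), and its change with iron went from -0.84 to -0.44. Rps7 went from 0.34 to 0.04 between LSKO and WT when summed in the same way, and from -0.50 to -0.21 with iron. Rps12 and Rps7, at 0.09 and 0.22 with selenite on their own reads, stood at 0.50 and 0.52 when summed. Over all members the sums gave 44 rises with selenite, beside 5.93% of the genes tested, and 10 falls with iron, beside 5.02%.

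**Figure D5:**
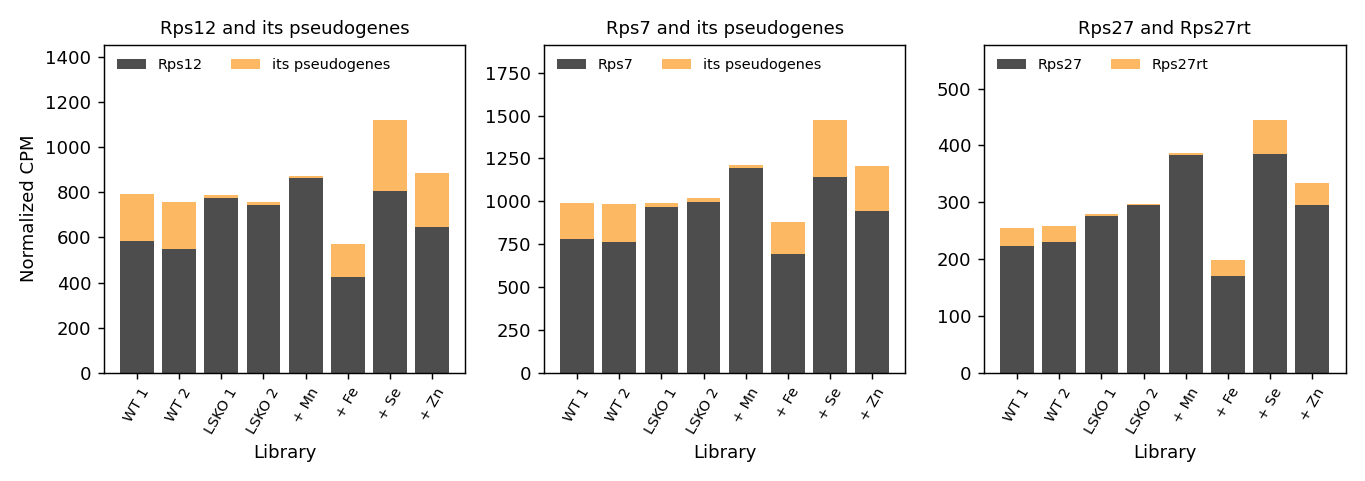
Normalized CPM by library (x axis) of Rps12 and Rps7 with the reads of their pseudogenes stacked on top, and of Rps27 with Rps27rt. The orange parts are small in the LSKO and manganese libraries, and the stacked bars of Rps12 and Rps7 are close in WT and LSKO.

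Genes that work with the ribosome were read from lists. Beside every list count below, 7.89% of all genes were called higher and 9.67% lower with selenite, and 3.8% and 4.89% with iron. The list counts were not corrected for transcript length or GC content. Of 3 ribosomal proteins with other symbols 1 rose with selenite, Fau, whose product is processed to Rps30 (0.55 ± 0.10). Rack1 (0.26) was not called, and the lowest of the list stood at -0.04. Of a list of 7 elongation factors and related genes 1 was called, Tpt1 (0.54 ± 0.09), which encodes the translationally controlled tumour protein and is not an elongation factor. Eef1a1, which brings aminoacyl-tRNA to the ribosome, stood at 0.42 and Eef2 at -0.22, and neither was called. Of 13 eIF3 subunits 2 rose, Eif3m (0.60 ± 0.09) and Eif3e (0.55 ± 0.09). Of 18 other initiation factors 1 rose, Eif2s2 (0.74 ± 0.10). Of 10 nascent-chain factors 3 rose and 1 fell, with the translocon gene Sec61g at 0.57 ± 0.12 and Srp54a of the signal recognition particle at -0.62 ± 0.16. Srp54a had 11.3 and 10.3 normalized CPM in WT, 18.2 and 20.5 in LSKO and 12.6 with selenite, so it was higher in LSKO than on the other side of the read-statistics split.
Of 36 ribosome assembly genes 2 rose and 1 fell with selenite, with Npm1 at 0.61 ± 0.09 and Nat10 at -0.60 ± 0.13. With iron 3 rose, among them Nop56 (0.70 ± 0.09) and Nop2 (0.69 ± 0.09), and the list median was 0.29. Of 12 genes of RNA polymerase I, which makes ribosomal RNA, 1 rose and 3 fell with selenite, with Tcof1 at -0.67 ± 0.14. Of 14 genes of mTORC1 and the TOP pathway 0 rose and 6 fell with selenite, with a median of -0.41. Tsc2, which restrains mTORC1, was at -0.86 ± 0.13 and the kinase gene Mtor at -0.69 ± 0.13, and Larp1, which binds TOP messages, was at -0.66 ± 0.10. Of 7 surveillance genes 0 were called with selenite, and Mdm2 rose with iron (0.50 ± 0.09).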

How the data were processed

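RNA-seq reads were trimmed with Trimmomatic, aligned to GRCm38 with HISAT2 and counted per gene with HTSeq by the authors, who deposited raw read counts per gene for each library. Neither the strand setting nor the annotation release is given in the sources used here. Gene names and lengths came from GENCODE M21, which matched all 55450 gene identifiers. Genes with at least 80 reads over the 8 libraries (15468) were tested in edgeR 4.0.16 with TMM factors, the quasi-likelihood F-test and 6 groups, so that groups with 1 library borrowed the spread of the WT and LSKO pairs, and Benjamini-Hochberg adjustment over all genes. SE is the log2 fold change over the square root of F. Pseudogenes were matched to members by blastn at 80% identity or more. DESeq2 1.42.0 was an alternative. The fits were tested on simulated data.

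The members, lists, length classes and overlap limit were chosen with earlier results of these data known. Named members were, per comparison, up to 4 called genes a direction by size of change among those with a mean of at least 100 reads, the 3 highest and 3 lowest per kb in each subunit, the 5 widest and 5 narrowest ranges, variant forms, and Rplp0, Rplp1, Rplp2, Rpsa, Rps19, Rpl5, Rpl11 and Rps6. Rpl21, Rpl28, Rpl35, Rps7, Rpl31 and Rps25 were named after their values were seen. Items withheld from this text are not reported here. Changes between replicates of the same number correlated at -0.0833 between WT and LSKO.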

Additional observations from a re-analysis of the deposited data

Results flagged for a closer look

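Pseudogenes matched to the ribosomal protein genes lie outside the main measurement. They held 6.20 reads per 100 member reads in the iron library, 6.55 in the selenite library and 6.49 in the zinc library, each above the 3.40 and 3.37 of the untreated LSKO pair. The WT libraries, at 6.28 and 6.41, stood at the same level as these 3.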

How the results depend on the processing

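With the length and GC trend taken out, 3 members were called higher with selenite, beside 3.76% of all genes. Against iron and zinc 3 were called higher with selenite (2.81% of all genes), and with manganese 17 were (2.97%). Called lower were 4 with iron (4.28%) and 2 in LSKO against WT (3.45%). Medians were 0.10 (selenite), 0.26 (manganese), -0.20 (iron), 0.042 (zinc) and 0.19 (selenite against iron and zinc). Without TMM scaling, an alternative chosen after seeing the data, 4 were higher with selenite (median 0.26), beside 3.91% of all genes. Against iron and zinc 17 were higher with selenite (median 0.37), beside 3.58%. In LSKO against WT 2 were lower, beside 4.06%, and the zinc median was 0.10. With no fold limit 71 rose with selenite (13.8% of all genes), 18 with manganese (3.94%) and 6 with zinc (3.4%), 42 fell with iron (6.14%), and 5 rose and 5 fell in LSKO against WT (9.05% and 5.76%). With WT as the control manganese gave 6 higher (9.45% of all genes) and zinc 0 higher (6.39%). Iron gave 0 higher (5.88%) and 6 lower (4.76%), with a median of -0.24, and the selenite median was 0.55. With all 4 untreated libraries as the control iron gave 0 higher and 0 lower and zinc 0 higher. That fit called 1 and 1 of 15468 genes for iron and 0 and 0 for zinc, so these counts do not set the members apart. Member medians there were 0.52 (selenite), -0.29 (iron) and 0.20 (zinc). Members summed with pseudogenes gave 5 higher and 1 lower with zinc, beside 2.15% and 1.45% of the genes tested. In LSKO against WT they gave 1 higher and 3 lower, beside 7.1% and 2.7%. With no filter 2 were lower in LSKO against WT, beside 2.57% of the genes tested. Leaving out 1 replicate gave 27 to 33 higher with selenite, the fewest without LSKO replicate 1 (medians 0.42 to 0.47) and 1 to 2 lower in LSKO against WT (medians -0.010 to 0.12, the highest without WT replicate 1). The cause of these moves was not tested.

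In protein-coding reads the member share was 6.75% and 6.47% in WT, 6.55% and 6.40% in LSKO, 6.98% in the manganese library, 5.47% in the iron library, 7.76% under selenite and 6.84% under zinc. With pseudogenes it was 6.60% and 6.30%, 6.25% and 6.14%, 6.87%, 5.38%, 7.52% and 6.73%. The replicate block over the 4 untreated libraries gave 0 higher and 1 lower, beside 7.15% and 4.12% of the genes tested. The replicate numbers did not pair the libraries. Each metal had 1 library, which limits every metal comparison.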
